A study of Mus musculus with 6 samples.

Results

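The secreted ligands of the VEGF and angiopoietin systems were examined in mouse kidney by 13 array probes that name 8 genes, out of 41174 probes on the array. The genes were Vegfa, Vegfb, Vegfc, Figf (the array's name for Vegfd), Pgf, Angpt1, Angpt2 and Angptl4, and the probes were taken by the gene name that the scanner files give them. All 13 probes kept their gene when names were updated through RefSeq, and all 8 genes passed the filter on dim signals, among 19615 genes tested.

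The kidneys came from 4 groups. Gpr97-deficient mice gave 1 array after ischaemia/reperfusion injury (IRI), in which renal blood flow is stopped and then restored, and 1 array after a sham operation. Wild-type mice gave 2 arrays after IRI and 2 after sham surgery. Every sample is labelled male. The labels give no strain, age, Gpr97 allele, ischaemia length or collection time, and do not say whether arrays of 1 group stem from separate animals. The p-values therefore measure the spread between these samples, which may be technical, and a Gpr97-deficient group is 1 array that the model assumes to vary like the wild-type ones.

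VEGF ligands are dimeric growth factors that bind receptor tyrosine kinases on endothelial cells. Vegfa, made in the kidney mainly by podocytes and tubular epithelium, acts on Kdr and Flt1 and keeps glomerular and peritubular capillaries open. Vegfb and Pgf bind Flt1, and Vegfc and Figf act on Flt4, the receptor of lymphatic endothelium. Angpt1 activates the receptor Tek and stabilises vessels, whereas Angpt2, stored in endothelial cells, largely opposes it. Angptl4 does not bind Tek. It inhibits lipoprotein lipase and is a target of PPAR nuclear receptors and of hypoxia.

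Signals are log2 values above or below each array's own 75th percentile, so 1 unit is a 2-fold difference, and levels of different probes are not set against each other. Between 63.0% and 71.1% of probes were well above background, 0 spots were saturated, and the number of arrays limits the precision. Gpr97, now Adgrg3, stood at -5.71 on the Gpr97-deficient injured array (not well above background) and -5.34 on the Gpr97-deficient sham array, against 1.10 and 1.25 on the wild-type injured arrays and 0.24 and 0.05 on the wild-type sham arrays. The markers of proximal tubule (8 of 8) and of thick limb and distal tubule (7 of 7) passed the filter on dim signals. One library went against its label. On wild-type injured array 1, the female-specific RNA Xist reached 4.10 (on the other 5 arrays it was at most -5.38), and Ddx3y, Eif2s3y, Kdm5d and Uty, all Y-linked, were below the background limit on that array alone. The ligands' changes and those of most other genes and list medians named are therefore also given without that array. Changes at the further probes of a ligand and the medians of blood cell markers are given with all arrays only. Wild-type injured array 2 and wild-type sham array 1 lay on slide 1 and the other 4 arrays on slide 2, which gives 1 injured-against-sham pair on slide 1 (wild type) and 2 on slide 2 (Gpr97-deficient and wild type).

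The probes below are among those of the ligands with several probes (Vegfa, Vegfb and Angpt1), with those of Pgf, whose injured and sham arrays lay apart, and of Angptl4, whose signals varied most. Each line shows the first 30 of the 60 bases, 5′ to 3′, in lower case. The Vegfa probes are on the minus strand of chromosome 17 in mm9. Of those shown, the first was the brightest Vegfa probe and represents the gene, the second is printed 10 times on each array, and the third lies farther 5′.
Vegfa probe A_52_P638895: cagatcggtgacagtcactagcttgtcctg
Vegfa probe A_51_P482552: actggattcgccattttcttatatctgctg
Vegfa probe A_52_P229471: ttaaatcgtgccaacggtttgaggaggttg
Vegfb probe A_51_P458168: atgataactgtgacacacacacacactcac
Vegfb probe A_52_P436628: tgcttttatggccctgcttcacagggagaa
Pgf probe A_51_P318381: tagaaactcacagactgaggaaccccaccc
Angpt1 probe A_52_P160328: acactgcgggacaaaatcatggaaaactga
Angpt1 probe A_52_P574140: tggacaccttgaaggaggagaaagaaaacc
Angptl4 probe A_51_P338443: atggtgctgttgtaggtgctgtggatgcac

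In mm9 these Vegfa probes start at positions 46154387, 46155512 and 46169039 in that order. The brightest Vegfb probe lies on chromosome 19 from 7056962 to 7057019 and the other from 7057245 to 7057304, both on the minus strand. The Pgf probe spans chromosome 12 from 86508335 to 86510337 on the minus strand, a stretch longer than its 60 bases. The Angpt1 probes lie on chromosome 15 from 42258569 to 42258628 and from 42327896 to 42327955, 69327 bases apart. The Angptl4 probe lies on chromosome 17 from 33911880 to 33911939.

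The first question was whether IRI altered the ligands. Vegfb was lower on all 3 injured arrays than on all 3 sham arrays and Pgf was higher on all 3, while the injured and sham arrays of the other 6 ligands overlapped. Over all genes, 12.4% lay below in this way and 10.1% above, close to the shares among the 8 ligands. No ligand passed the test. Limma, fitted with genotype and surgery as additive terms, called 0 of 8 ligands at a Benjamini-Hochberg adjusted p under 0.05, where it called 0 of all 19615 genes (0%), with 2408 genes at an unadjusted p under 0.05. The same threshold called 0 ligands and 0% of genes for injury in wild type (1249 genes at an unadjusted p under 0.05) and for injury in Gpr97 deficiency (537 genes). The ligands' median change was -0.05, against -0.04 over all genes tested. Less RNA per cell and fewer cells of a kind cannot be told apart in these whole-kidney signals.

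**Figure D1:**
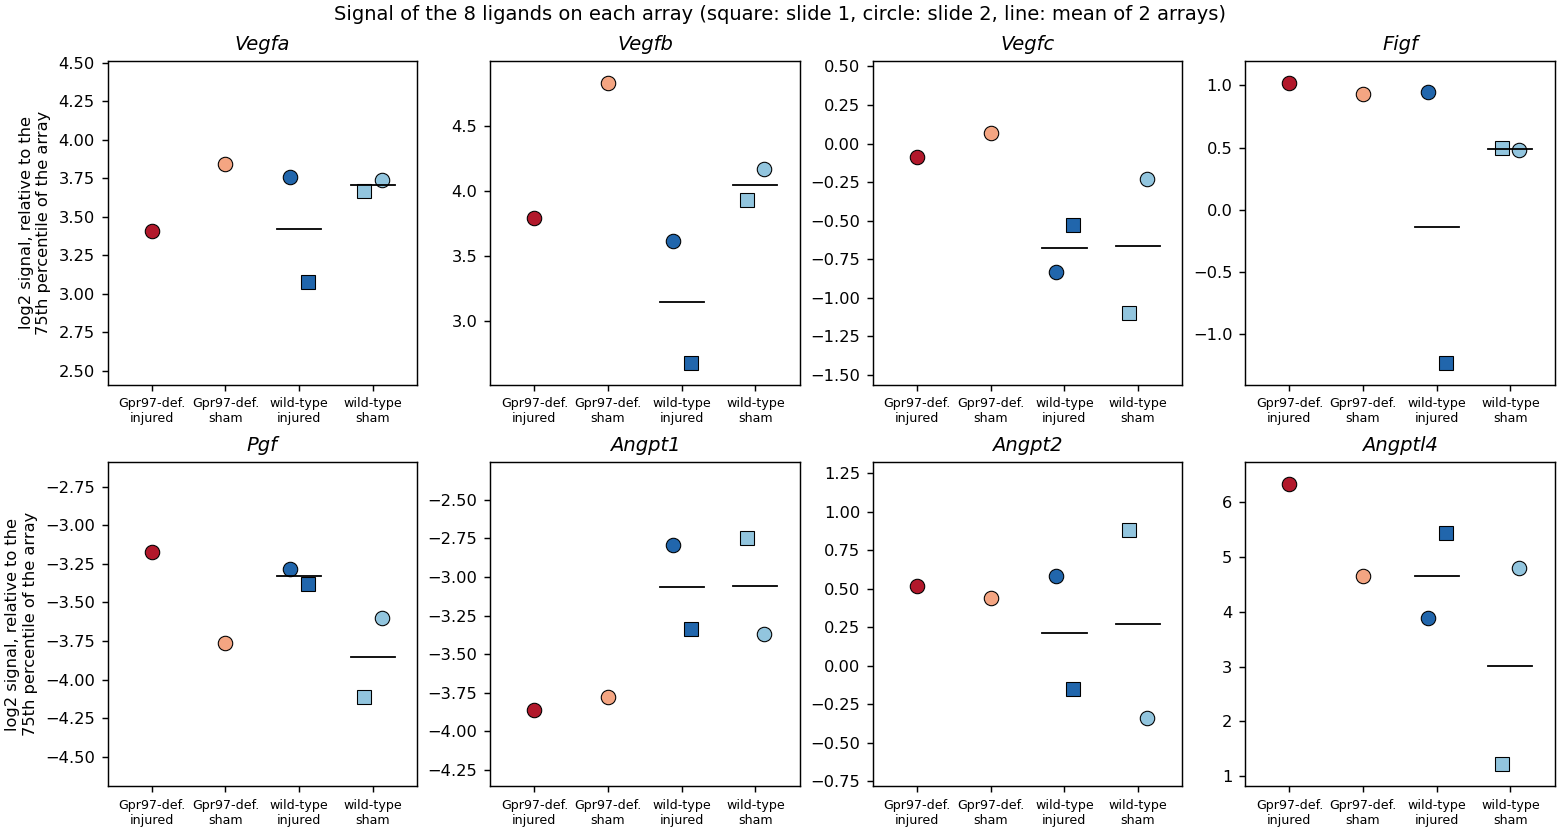
Log2 signal of each ligand (0 is the array's 75th percentile) on each of the 6 arrays, with Gpr97-deficient injured, Gpr97-deficient sham, wild-type injured and wild-type sham from left to right. Squares are slide 1, circles are slide 2 and lines are means of 2 arrays. Vegfb is lower on the injured arrays, Pgf is higher on them, and Angptl4 has the widest range.

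Vegfb, a ligand of Flt1 linked to fatty acid uptake by endothelium, stood at 3.79 on the Gpr97-deficient injured array and at 3.62 and 2.68 on the wild-type injured arrays, against 4.83 on the Gpr97-deficient sham array and 3.93 and 4.17 on the wild-type sham arrays. Every injured array was below every sham array, and so were 12.4% of all genes measured on every array. The mean was 3.36 ± 0.60 after injury and 4.31 ± 0.46 after sham surgery (SD, n = 3 each). The fitted change was -0.95 (SE 0.29), or 1.93-fold lower, with an adjusted p of 0.341. Its unadjusted p was under 0.05, and 6.51% of all genes tested were lower with an unadjusted p under 0.05. Vegfb was lower in the Gpr97-deficient pair by -1.04, in the slide 1 wild-type pair by -1.25 and in the slide 2 wild-type pair by -0.55, a sign shared in all pairs by 25.3% of genes. Without wild-type injured array 1 the change was -1.23 (adjusted p 0.165). The second Vegfb probe did not share this order. Its signals were 2.07 on the Gpr97-deficient injured array and 2.53 and 1.13 on the wild-type injured arrays, against 2.61 on the Gpr97-deficient sham array and 2.21 and 2.11 on the wild-type sham arrays, so that injured and sham arrays overlapped, and its change was -0.40 (SE 0.38, adjusted p 0.733 in a fit of all probes).

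Pgf, which binds Flt1 and is little made in healthy adult tissue, stood at -3.17 on the Gpr97-deficient injured array and at -3.28 and -3.38 on the wild-type injured arrays, against -3.76 on the Gpr97-deficient sham array and -4.11 and -3.60 on the wild-type sham arrays. Every injured array was above every sham array, which held for 10.1% of all genes. The injured mean was -3.28 ± 0.10 and the sham mean -3.83 ± 0.26 (SD, n = 3 each). The fitted change was 0.55 (SE 0.19), or 1.46-fold higher, with an adjusted p of 0.382, its unadjusted p was under 0.05, and 5.77% of all genes tested were higher with an unadjusted p under 0.05. Pgf was higher by 0.58 in the Gpr97-deficient pair, 0.74 in the slide 1 wild-type pair and 0.32 in the slide 2 wild-type pair, and 19.6% of genes were higher in all pairs. Without wild-type injured array 1 the change was 0.53 (adjusted p 0.357).

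**Figure D2:**
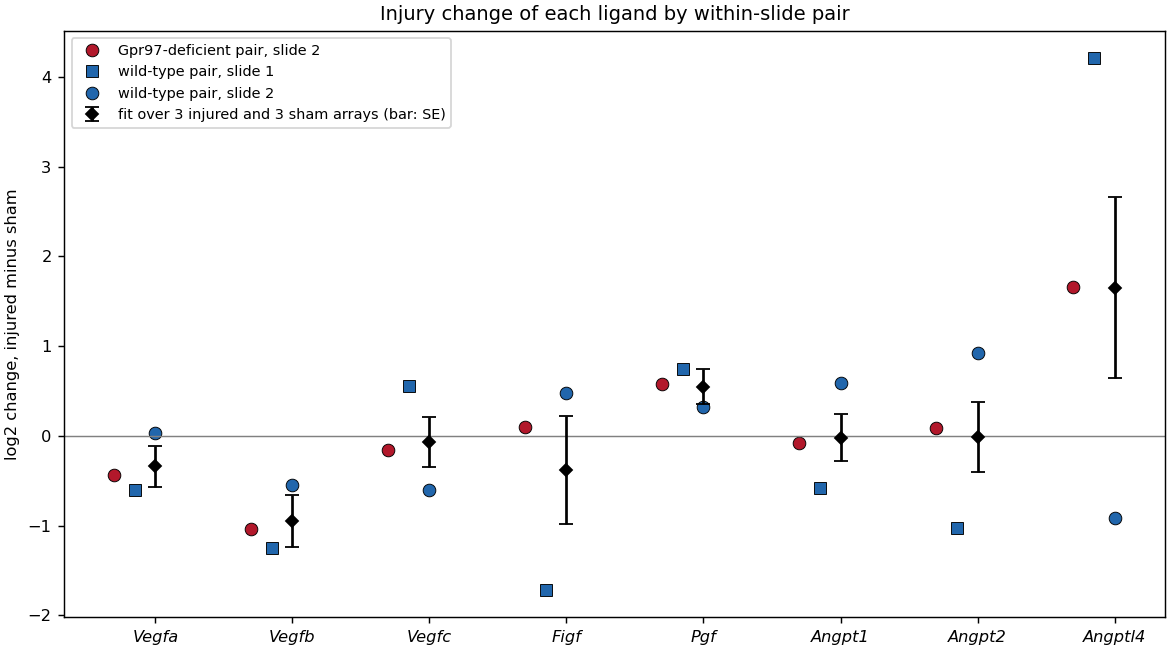
Log2 change (injured minus sham) of each ligand in the Gpr97-deficient pair and the wild-type pairs on slides 1 and 2, beside the fitted change over 3 injured and 3 sham arrays with its standard error. Vegfb lies below 0 and Pgf above 0 in all pairs, and the wild-type pairs of Vegfa, Figf, Angpt1, Angpt2, Vegfc and Angptl4 lie on opposite sides of 0.

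Vegfa, the main endothelial survival factor of the kidney, stood at 3.41 on the Gpr97-deficient injured array and at 3.76 and 3.08 on the wild-type injured arrays, against 3.84 on the Gpr97-deficient sham array and 3.67 and 3.74 on the wild-type sham arrays. The sham arrays lay within a narrow span, with a mean of 3.75 ± 0.09, against 3.42 ± 0.34 after injury (SD, n = 3 each), and wild-type injured array 1 lay among them. The change was -0.34 (SE 0.23, adjusted p 0.6). Without wild-type injured array 1 it was -0.55 (adjusted p 0.249), and both remaining injured arrays were then below all sham arrays, as were 20.3% of all genes.

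The Vegfa probes whose sequences are given above had changes of different size. The probe with 10 copies per array was lower in all pairs, by -0.39 in the Gpr97-deficient pair, -0.20 in the slide 1 wild-type pair and -0.21 in the slide 2 wild-type pair, and its fitted change was -0.27 (SE 0.17, adjusted p 0.603). The SD of its copies on 1 array was between 0.04 and 0.09. The probe 14652 bases 5′ of the brightest had a change of -0.03 (SE 0.21). None of these passed the test.

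**Figure D3:**
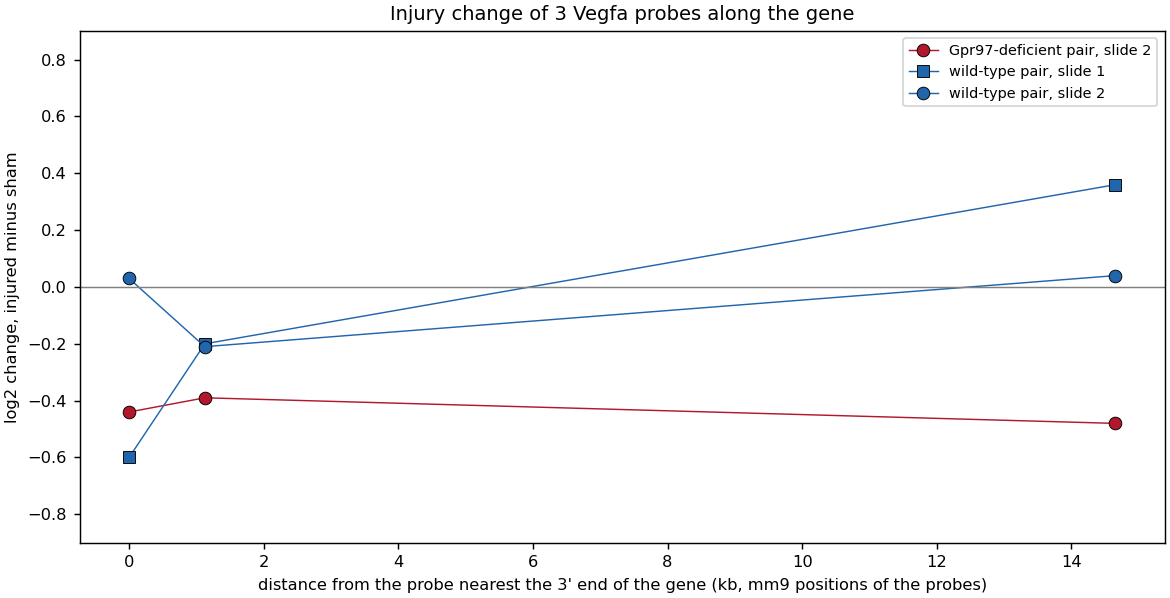
Log2 change (injured minus sham) of 3 of the Vegfa probes against their distance from the probe nearest the 3′ end of the gene, for the Gpr97-deficient pair and both wild-type pairs. The Gpr97-deficient pair is below 0 at these 3 probes. The wild-type pairs are both below 0 at the probe 1125 bases away and both above 0 at the probe 14652 bases away.

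Of the ligands of lymphatic vessels, Vegfc stood at -0.09 on the Gpr97-deficient injured array and at -0.83 and -0.53 on the wild-type injured arrays, against 0.07 on the Gpr97-deficient sham array and -1.10 and -0.23 on the wild-type sham arrays. Injured and sham arrays overlapped throughout (change -0.07, SE 0.28, adjusted p 0.958), also without wild-type injured array 1 (0.00). Figf stood at 1.02 on the Gpr97-deficient injured array and at 0.95 and -1.23 on the wild-type injured arrays, against 0.93 on the Gpr97-deficient sham array and 0.50 and 0.48 on the wild-type sham arrays. The change of Figf, -0.38 (SE 0.60, adjusted p 0.846), turned to 0.31 without wild-type injured array 2, the one array below 0, when both remaining injured arrays were above all sham arrays, as were 14.1% of all genes, and was -0.94 without wild-type injured array 1.

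The brightest Angpt1 probe overlapped between injured and sham arrays. It stood at -3.86 on the Gpr97-deficient injured array and at -2.79 and -3.34 on the wild-type injured arrays, against -3.78 on the Gpr97-deficient sham array and -2.75 and -3.37 on the wild-type sham arrays, a change of -0.02 (SE 0.26, adjusted p 0.986; -0.19 without wild-type injured array 1). Its second probe, well above background on 5 of 6 arrays, was lower in all pairs, by -0.57 in the Gpr97-deficient pair, -1.17 on slide 1 and -0.08 on slide 2 in wild type, with a fitted change of -0.61 (SE 0.24, adjusted p 0.43). Angpt2 stood at 0.52 on the Gpr97-deficient injured array and at 0.58 and -0.15 on the wild-type injured arrays, against 0.44 on the Gpr97-deficient sham array and 0.88 and -0.34 on the wild-type sham arrays. Its change was -0.01 (SE 0.39, adjusted p 0.997; -0.20 without wild-type injured array 1), with opposite signs on the slides in wild type (-1.03 on slide 1 and 0.92 on slide 2).

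Angptl4 varied most. It stood at 6.33 on the Gpr97-deficient injured array and at 3.89 and 5.43 on the wild-type injured arrays, against 4.66 on the Gpr97-deficient sham array and 1.22 and 4.80 on the wild-type sham arrays. Its highest and lowest arrays were 34.5-fold apart, a range wider than that of 99.1% of genes, whereas the ranges of the other 7 ligands were between 1.70-fold and 4.76-fold. The mean was 5.21 ± 1.23 after injury and 3.56 ± 2.03 after sham surgery (SD, n = 3 each). The change was 1.65 (SE 1.01, adjusted p 0.566). It was 1.66 in the Gpr97-deficient pair, 4.21 in the slide 1 wild-type pair and -0.91 in the slide 2 wild-type pair. The wild-type sham arrays alone spanned 1.22 to 4.80: the change was 0.63 when wild-type sham array 1 was left out, and 2.68 when array 2 of that group was. Without wild-type injured array 1 it was 2.10 (adjusted p 0.454), and both remaining injured arrays were above all sham arrays, as were 15.1% of all genes.

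Genes of lipid handling that share regulators with Angptl4 were listed beside it. Of 12 genes of lipoprotein lipase and PPAR targets, 9 were higher and 3 lower after injury, with a median change of 0.44 and 0 past the adjusted threshold. Pdk4, which restrains glucose oxidation, differed by 2.34 (SE 0.52, adjusted p 0.279). Its signals were 4.08 on the Gpr97-deficient injured array and 0.58 and 2.31 on the wild-type injured arrays, against 1.02 on the Gpr97-deficient sham array and -0.65 and -0.44 on the wild-type sham arrays. Plin2, a coat protein of lipid droplets, had a change of 2.30 (SE 0.76, adjusted p 0.368) and Ucp2, a mitochondrial carrier, 1.45 (SE 0.27, adjusted p 0.262). Lpl, the enzyme that Angptl4 inhibits, was lower on all injured arrays: 3.64 on the Gpr97-deficient injured array and 3.14 and 3.09 on the wild-type injured arrays, against 5.04 on the Gpr97-deficient sham array and 4.43 and 5.47 on the wild-type sham arrays, a change of -1.69 (SE 0.32, adjusted p 0.262). For Lpl, Plin2 and Ucp2 the injured and sham arrays did not overlap, whereas those of Angptl4 and Pdk4 did. Over all genes, every injured array was above every sham array for 10.1% and below for 12.4%. Leaving out wild-type injured array 1 gave 2.94 for Pdk4, 3.18 for Plin2, 1.70 for Ucp2 and -1.66 for Lpl, with a median of 0.60 for the 12 genes. Both remaining injured arrays were then above all sham arrays for Pdk4, as they were for 15.1% of all genes. Adipocytes also make Angptl4. Among 7 adipocyte markers Adipoq, Plin1 and Lep were too dim to be tested, and the median of the 4 others, relative to the wild-type sham mean, was -0.72 and -1.40 on the Gpr97-deficient injured and sham arrays, -2.07 and -0.74 on the wild-type injured arrays and 0.90 and -0.90 on the wild-type sham arrays. The changes of these markers differed in sign. Cidec, a lipid droplet protein, differed by 3.45 (SE 0.56, adjusted p 0.258; 3.71 without wild-type injured array 1) with every injured array above every sham array. Retn, an adipocyte hormone, differed by -1.24 (SE 0.90, adjusted p 0.626; -0.36 without that array), and Cidea was not well above background on either wild-type injured array. The median change of the 4 markers was -0.47, and 0.52 without that array. The part of adipocytes in the Angptl4 signal was not tested.

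**Figure D4:**
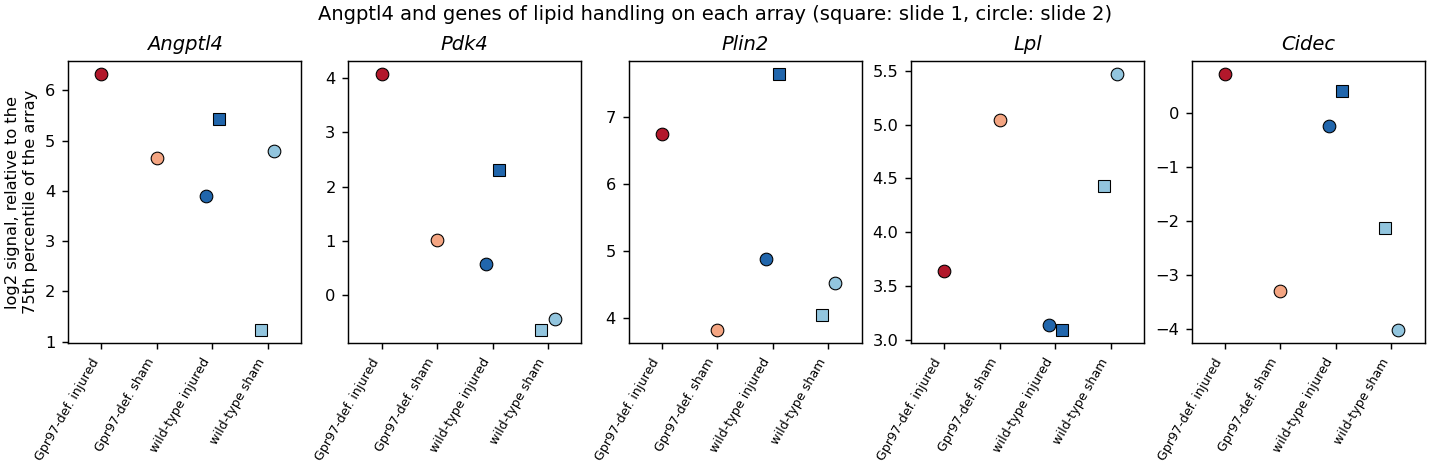
Log2 signal (0 is the array's 75th percentile) of Angptl4, 3 genes of lipid handling and Cidec, which is also an adipocyte marker, on each array, with Gpr97-deficient injured, Gpr97-deficient sham, wild-type injured and wild-type sham from left to right (squares slide 1, circles slide 2). Lpl is lower and Plin2 and Cidec are higher on every injured array, and Angptl4 is not separated.

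Among the receptors, Kdr, the main signalling receptor of Vegfa, was the one with injured and sham arrays apart. Kdr was lower on every injured array than on every sham array, as were 12.4% of all genes. It stood at 1.90 on the Gpr97-deficient injured array and at 1.54 and 2.01 on the wild-type injured arrays, against 2.56 on the Gpr97-deficient sham array and 2.29 and 2.53 on the wild-type sham arrays, a change of -0.65 (SE 0.19, adjusted p 0.34). It was lower by -0.66 in the Gpr97-deficient pair, -0.29 in the slide 1 wild-type pair and -0.99 in the slide 2 wild-type pair, which holds wild-type injured array 1, and the change without that array was -0.51 (adjusted p 0.294). Flt1, the receptor of Vegfb and Pgf, differed by 0.09 (SE 0.16) and Flt4 by 0.12 (SE 0.28). The co-receptors Nrp1 and Nrp2 differed by 0.41 (SE 0.20) and 0.11 (SE 0.27). Of the angiopoietin receptors, Tek differed by -0.28 (SE 0.24) and Tie1 by 0.05 (SE 0.19), and Ptprb, the phosphatase that silences Tek, by -0.24 (SE 0.18). None of these 8 genes passed the adjusted threshold. With wild-type injured array 1 left out, Flt1 differed by 0.18, Flt4 by 0.39, Nrp1 by 0.39, Nrp2 by 0.33, Tek by -0.15, Tie1 by 0.09 and Ptprb by -0.27. The 12 endothelial markers had a median change of 0.28, with 10 higher and 2 lower (0.28 also without wild-type injured array 1). Their median, relative to the wild-type sham mean, was 0.64 on the Gpr97-deficient injured array and 0.14 and 0.19 on the wild-type injured arrays, against 0.27 after sham surgery in Gpr97 deficiency and 0.00 on each wild-type sham array. In every list, such medians of the wild-type sham arrays mirror each other around 0 by construction and do not show the spread of single genes. The part of endothelial content in the Kdr value was not tested.

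Sema3 proteins bind neuropilins, as VEGF ligands do. Of 5 measured, Sema3f and Sema3c were higher on every injured array, with changes of 1.07 (SE 0.24, adjusted p 0.28) and 0.94 (SE 0.27, adjusted p 0.336). Every injured array was above every sham array for 10.1% of all genes. The antiangiogenic genes had 3 of 6 tested members higher. Col18a1, which yields endostatin, was higher by 0.96 (SE 0.16, adjusted p 0.258) and Thbs1, a thrombospondin, by 0.87 (SE 0.16, adjusted p 0.262), both with injured and sham arrays apart. Timp3, an inhibitor of metalloproteinases that also blocks Kdr, was likewise apart but in the other direction, as were 12.4% of all genes. The change of Timp3 was -0.47 (SE 0.25, adjusted p 0.52). These changes were 1.21 for Sema3f, 1.22 for Sema3c, 0.93 for Col18a1, 0.93 for Thbs1 and -0.55 for Timp3 without wild-type injured array 1. Of the related platelet-derived ligands, Pdgfa differed by 0.62 (SE 0.23, adjusted p 0.396) and Pdgfc by -0.68 (SE 0.19, adjusted p 0.329), or by 0.77 and -0.79 without wild-type injured array 1.

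**Figure D5:**
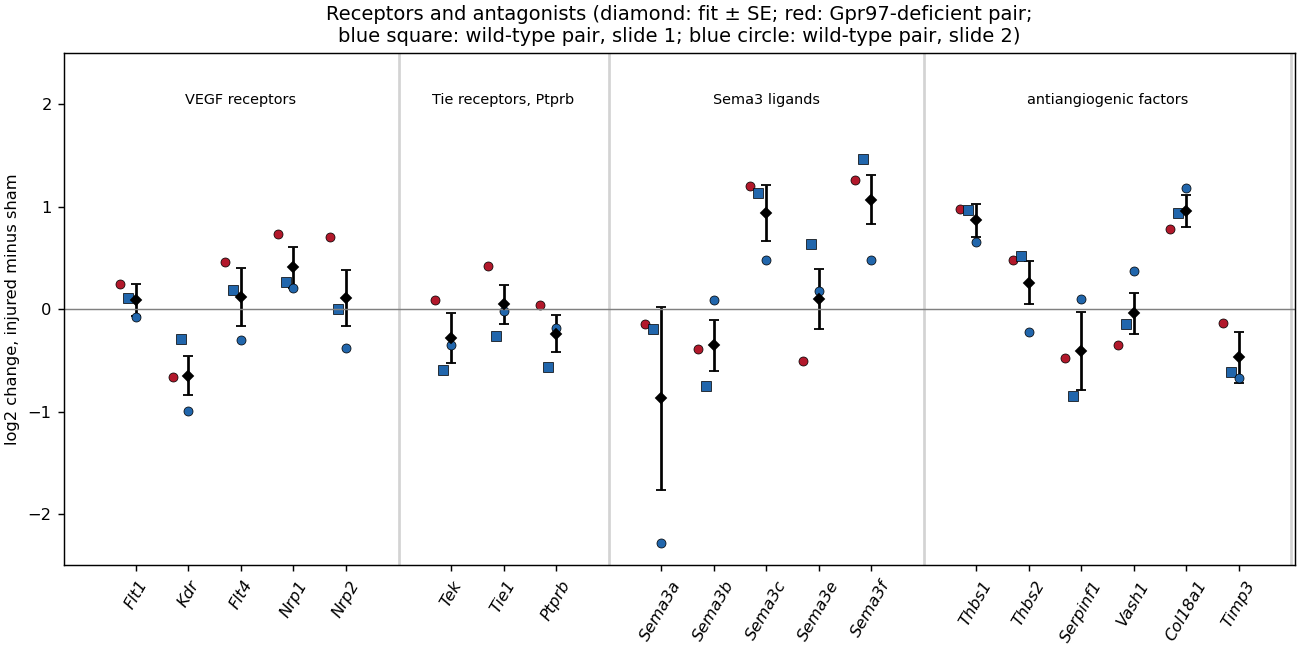
Log2 change (injured minus sham) of the receptors, Sema3 ligands and antiangiogenic factors, as the fitted change with its standard error (diamonds) and by pair: Gpr97-deficient (red), wild type on slide 1 (blue squares) and on slide 2 (blue circles). Kdr lies below 0 in all pairs, and Sema3c, Sema3f, Thbs1 and Col18a1 above 0. Over all genes, 25.3% were lower and 19.6% were higher in all pairs.

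Vegfa and Angptl4 are textbook hypoxia targets, so 16 other targets were set beside them. Of these 10 were higher and 6 lower after injury, with a median of 0.24 and 0 past the adjusted threshold. Hk2, a hexokinase, differed by 2.46 (SE 0.49, adjusted p 0.262; 1 wild-type sham array was not well above background), Pfkfb3 by 0.69 (SE 0.25, adjusted p 0.391) and Ero1l by 0.51 (SE 0.16, adjusted p 0.352). Egln1, an oxygen sensor of this pathway, differed by -0.60 (SE 0.16, adjusted p 0.314). When wild-type injured array 1 was left out, Hk2 differed by 2.88, Pfkfb3 by 0.93, Ero1l by 0.57 and Egln1 by -0.63, and the median of the 16 targets was 0.13. The proximal tubule markers had a median change of -1.03 (7 of 8 lower), the thick limb and distal markers -0.66 (6 of 7 lower), the 7 tubular injury genes 2.16 (7 of 7 higher) and the 8 podocyte markers 0.11. In the same order these medians were -1.25, -1.05, 2.99 and 0.16 without wild-type injured array 1. The proximal tubule median, relative to the wild-type sham mean, was -1.22 on the Gpr97-deficient injured array and -0.51 and -1.47 on the wild-type injured arrays, against -0.11 on the Gpr97-deficient sham array and -0.14 and 0.14 on the wild-type sham arrays, so that injured and sham arrays lay apart. The thick limb and distal median overlapped, at -0.41 on the Gpr97-deficient injured array and 0.05 and -1.28 on the wild-type injured arrays, against 0.36 on the Gpr97-deficient sham array and -0.03 and 0.03 on the wild-type sham arrays. Vegfa and Vegfb were lowest on the injured array where both medians were lowest, wild-type injured array 2. The part of tubular content in either result was not tested.

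The second question was whether Gpr97 deficiency altered the ligands. Over both surgeries 7 of 8 ligands were higher and 1 lower, with a median of 0.45 against -0.01 over all genes, and with slide as a block 5 were higher and 3 lower, with Vegfa at -0.12 and Pgf at -0.02. Limma called 0 ligands and 0% of genes (632 genes at an unadjusted p under 0.05). It also called 0% after sham surgery (419 genes at an unadjusted p under 0.05), 0% after injury (281 genes) and 0% for the interaction of genotype and surgery (292 genes). The Gpr97-deficient arrays lay on slide 2 only.

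Vegfc was higher on both Gpr97-deficient arrays (-0.09 after injury and 0.07 after sham surgery) than on all 4 wild-type arrays, whose highest value was -0.23, as were 4.29% of genes. Its difference was 0.66 (SE 0.29, adjusted p 0.994; 0.61 without wild-type injured array 1). Over the alternatives run, slide as a block among them, this difference lay between 0.47 and 0.84. Angpt1 was lower on both Gpr97-deficient arrays (-3.86 after injury and -3.78 after sham surgery) than on all wild-type arrays, whose lowest value was -3.37, as were 6.47% of genes. Its difference was -0.76 (SE 0.27, adjusted p 0.994; -0.63 without wild-type injured array 1), and it was the 1 ligand with an unadjusted p under 0.05. The second Angpt1 probe did not share it, with a difference of -0.03 (SE 0.26). Over the alternatives run, that probe and slide as a block among them, the Angpt1 difference lay between -0.90 and -0.03.

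Vegfb differed by 0.71 (SE 0.30), Figf by 0.80 (SE 0.63) and Angptl4 by 1.66 (SE 1.08) between genotypes, with arrays that overlapped and an adjusted p of 0.994 each. With slide as a block these were 0.41, 0.26 and 1.15. Without wild-type injured array 1 they were 0.92, 1.22 and 1.33. Vegfa (0.06), Pgf (0.13) and Angpt2 (0.24) differed by less than their standard errors (0.24, 0.21 and 0.42), and by 0.22, 0.14 and 0.38 without wild-type injured array 1. For the interaction, Figf had the largest value, 0.72 (SE 1.37), and the other 7 lay between -0.15 and 0.14. Flt1 was higher on both Gpr97-deficient arrays, at 4.41 after injury and 4.16 after sham surgery, than on all wild-type arrays (3.67 to 3.91), as were 4.29% of all genes. Its fitted difference was 0.50 (SE 0.17, adjusted p 0.994; 0.43 without wild-type injured array 1). Of the other receptor genes named above, only Ptprb was likewise apart, with a difference of 0.33 (SE 0.19, adjusted p 0.994). All 12 endothelial markers had a fitted difference above 0, with a median of 0.39 (0.35 without wild-type injured array 1) and 0 past the adjusted threshold. For Egfl7, Cldn5 and Vwf both Gpr97-deficient arrays lay above all wild-type arrays, as they did for 4.29% of all genes. For the other markers the genotypes overlapped, and Plvap was lower after sham surgery (-0.15). Medians of blood cell markers were high on the Gpr97-deficient arrays and on wild-type injured array 1. The median of the neutrophil markers, relative to the wild-type sham mean, was 3.18 and 3.77 on the Gpr97-deficient injured and sham arrays, 3.20 and 2.0 on the wild-type injured arrays and 0.26 and -0.26 on the wild-type sham arrays. The median of the red blood cell markers was 2.48 and 4.65 on the Gpr97-deficient injured and sham arrays, 3.63 and -2.0 on the wild-type injured arrays and -0.18 and 0.18 on the wild-type sham arrays. Their part in the ligand differences was not tested.

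Genes with the pattern most like each ligand were sought among 12855 genes above background on every array, leaving out the ligands themselves and genes named only by an accession or as a predicted gene or clone, by Pearson's r of log2 signal over 6 arrays, as a description of arrays that share slides and groups. For Vegfa they were Abcb9 (0.999) and Copz2 (0.997), for Vegfb Pafah1b1 (0.988) and Fbrsl1 (0.987), for Pgf Snapc2 (0.992) and Ppp1r35 (0.991), and for Angptl4 D11Wsu47e (0.998) and Macroh2a3 (0.994). The highest r was 0.994 for Angpt1 (Olfr524), 0.993 for Figf (Eno3), 0.992 for Angpt2 (Mapkbp1) and 0.977 for Vegfc (Sf3b2). Each ligand's values are the highest among 12855 genes over only 6 arrays, and shared regulation was not tested.

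RefSeq promoters (GRCm38.p6, the 250 bases before the start) were listed for 5 of the 8 genes, in 7 windows. Angpt1, Angpt2 and Angptl4 were not among them. Windows are shown for Vegfa, the best known ligand, and for Vegfb and Pgf, whose injured and sham arrays did not overlap. Capitals mark the GC box GGGCGG on either strand (CCGCCC in these letters), and matches can abut.
Vegfa promoter, chr17:46032378-46032627, minus strand: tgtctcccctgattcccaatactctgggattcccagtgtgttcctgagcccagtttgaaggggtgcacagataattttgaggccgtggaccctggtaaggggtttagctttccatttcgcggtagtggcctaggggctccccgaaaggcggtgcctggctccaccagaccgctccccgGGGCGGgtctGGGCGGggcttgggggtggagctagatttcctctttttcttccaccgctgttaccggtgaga
Vegfb promoter, chr19:6987652-6987901, minus strand: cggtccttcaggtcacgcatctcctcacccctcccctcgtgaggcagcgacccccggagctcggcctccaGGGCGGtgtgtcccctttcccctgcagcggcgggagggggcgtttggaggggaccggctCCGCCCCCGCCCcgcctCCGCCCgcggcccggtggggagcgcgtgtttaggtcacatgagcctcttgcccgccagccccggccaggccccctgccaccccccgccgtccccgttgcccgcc
Pgf promoter, chr12:85177314-85177563, minus strand: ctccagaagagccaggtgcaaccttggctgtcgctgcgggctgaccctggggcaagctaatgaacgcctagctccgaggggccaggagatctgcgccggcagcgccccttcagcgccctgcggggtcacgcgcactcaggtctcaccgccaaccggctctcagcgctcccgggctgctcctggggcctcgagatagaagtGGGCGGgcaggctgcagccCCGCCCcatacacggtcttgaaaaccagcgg

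The Vegfb window held 4 GC boxes, the Vegfa and Pgf windows 2 each, and 32.7% of the 32851 promoters in the table held at least 1. The core of the hypoxia response element, ACGTG on either strand, was in none of the 3 windows and in 16.6% of all promoters. A second Vegfa window, at an inner start, held 1 such core. Sequence outside the windows was not searched for it. A second Pgf window held 0 GC boxes, and neither Pgf window was at the outermost start of the gene. TATAAA, in 12.4% of all promoters, was found in the Vegfd window alone among the 7. GC content was 59.2% for the Vegfa window, 76.4% for Vegfb and 68.4% for Pgf. These are matches of letters, not evidence of binding.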

How the data were processed

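Kidney RNA was hybridised to 1-colour Agilent mouse arrays, 6 in all. The scanner files hold intensity values from Feature Extraction 10.7.1.1 (slide 1) and 10.7.3.1 (slide 2), per the file headers, which place probes in mm9. The authors' deposited series values were read as log2 values, because they ranked probes as the scanner signals do (Spearman's rho 1.0000, medians 6.07 to 6.09). How they were normalized stays unknown, and the submitters' processing notes name limma. Well-above-background and outlier marks are flags of the deposited files, a unit other than intensity.

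Processed signals were taken as log2, minus the 75th percentile of each array, without control spots (43379 of 45018 used per array). Outlier spots were left out as well, 632 over all 6 arrays together. Spots of a probe were averaged. A gene took its brightest probe and was tested if 2 or more of its 6 arrays were well above background (19615 genes). Of 41174 probes, 27668 were named by accession and 6060 by symbol in RefSeq, and 7446 kept the file's name. Two-sided tests came from limma (version 3.58.1, R version 4.3.3, data.table version 1.17.8), in a model with genotype and surgery as additive terms (3 residual degrees of freedom) and in a group-means model (2), with Benjamini-Hochberg adjustment over all genes and a threshold of 0.05. The fits were tested on simulated data with known changes, where the share of false calls was above the nominal one. No 2 arrays were identical (0 of 15 pairs).

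Members, gene lists and the rule for named genes (all ligands, their receptors, up to 4 genes of each other list by the size of the moderated t, and the 2 most alike genes) were chosen with earlier results of these data known. Not every gene that the rule takes is described, and 1 of the 13 ligand probes and some list values are not reported here. Alternatives covered background correction, normalization, deposited values, probe choice, filters, slide, variance model and each array left out; the fits of other probes and the counts of separated ligands without an array, and other genes and list medians without wild-type injured array 1, were added after the data were seen.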

Additional observations from a re-analysis of the deposited data

How the results depend on the processing

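No ligand passed the threshold under any alternative. Vegfb stayed lower (-1.25 to -0.40) and Pgf higher (0.41 to 0.74) after injury over both genotypes in all settings run, and Angptl4 stayed higher there (0.37 to 4.21). Counts over all genes for injury over both genotypes went to 1 with quantile normalization, deposited values or a slide block and to 3 under a robust prior with a variance trend, which also gave 1 for Gpr97 deficiency over both surgeries and 1 after injury. Background correction by normexp gave all genes a median injury change of 0.20 (-0.04 in the reported setting), so its changes are read against that shift.

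The following uncalled values turned sign, and their cause was not tested. For injury over both genotypes, normexp gave Angpt1 0.52 and Angpt2 0.04, and quantile normalization Angpt2 0.00. Slide 1 alone gave Vegfc 0.56, and slide 2 alone gave Figf 0.29, Angpt1 0.26 and Angpt2 0.50. Leaving out 1 array gave ranges of -0.33 to 0.17 for Vegfc, -0.94 to 0.31 for Figf, -0.21 to 0.15 for Angpt1 and -0.34 to 0.36 for Angpt2. For injury in wild type, normexp gave Vegfc 0.05. Angpt1 was 0.00 with quantile normalization, -0.02 with deposited values, -0.31 as the mean of its probes and -0.63 at probe A_52_P574140. The Vegfa probe A_52_P229471 gave 0.20. Slide 1 alone gave Vegfc 0.56 and Angpt1 -0.58, and slide 2 alone Vegfa 0.03, Figf 0.48, Angpt2 0.92 and Angptl4 -0.91. Leaving out 1 array gave -0.63 to 0.06 for Vegfa, -0.45 to 0.41 for Vegfc, -1.71 to 0.47 for Figf, -0.31 to 0.31 for Angpt1, -0.67 to 0.56 for Angpt2 and -0.14 to 3.44 for Angptl4. For Gpr97 deficiency over both surgeries, Vegfa was -0.04 as the mean of its probes, -0.12 with a slide block, -0.27 at probe A_51_P482552 and -0.18 at probe A_52_P229471, and Pgf was -0.54 with normexp and -0.02 with a slide block. Leaving out 1 array gave -0.07 to 0.22 for Vegfa and -0.01 to 0.51 for Angpt2.

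The count of ligands with all injured arrays below all sham arrays was 1 to 2 when 1 array was left out, and of those above 1 to 2. Without wild-type injured array 1, Vegfa joined Vegfb below and Angptl4 joined Pgf above, and without wild-type injured array 2, Figf joined Pgf above. With 1 array left out, 15.3% to 20.3% of all genes lay below and 12.2% to 16.9% above, against 12.4% and 10.1% with all arrays. The median injury change of pericyte and mesangial markers was -0.17 without wild-type injured array 1 (0.13 with it), and that of adipocyte markers 0.52 (-0.47 with it).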
